A study of Homo sapiens with 4 samples.

Results

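SOX proteins are transcription factors that share a DNA-binding domain, the HMG box, which sits in the minor groove of DNA and bends it. They are sorted into groups by that domain, and the members act in the early steps of many lineages, from neural progenitors to cartilage, pigment cells and endothelium. In differentiated cells many of these genes are held silent by the Polycomb machinery, whose EZH2-containing complex places 3 methyl groups on lysine 27 of histone H3 (H3K27me3). The mark typically forms broad blankets over CpG-rich promoters and the sequence around them. In skin, SOX9 is the best-known member and maintains hair follicle stem cells, whereas SOX10 belongs to the pigment cells.

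The regions described here are the H3K27me3 peaks that overlap windows around 10 SOX genes in human genome build hg19. The windows were given as genome positions, measure 42 to 56 kb and add up to 454 kb. They were chosen with earlier results of these data known. As background knowledge of hg19 that the files do not hold, each SOX gene is short and lies near the middle of its window. The peaks come from HaCaT, an immortalised line of human keratinocytes. Chromatin of these cells was immunoprecipitated with an antibody to H3K27me3 after 12 hours in medium with either the solvent DMSO or AKBA, an abbreviation commonly used for an acetylated keto-boswellic acid of frankincense resin that the labels do not spell out. The sources used here give neither the dose of AKBA nor the amount of DMSO in the AKBA medium. There are 4 samples. An H3K27me3 library of each condition gave 1 peak list, and the 2 input DNA samples were not analysed here. The windows held 26 of the 8890 DMSO peaks and 22 of the 13155 AKBA peaks, together 48 of 22045 (0.218%). All 48 lay wholly inside their windows. Since each condition has 1 library, differences could not be set against replicates and are given without p-values. Sequencing depth is unknown, so a region without a peak may still carry the mark below the authors' threshold, and intervals given for shares and ratios cover counting error only.

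RefSeq promoter sequences of assembly GRCh38.p14 were matched for 3 of the 10 genes, SOX1, SOX2 and SOX21. They are shown because these genes have marked windows and because CpG density is a known feature of Polycomb-bound promoters. Each line gives the 250 bases before the annotated start of transcription on the gene's own strand, 5′ to 3′, with every CpG (the letters CG, which read the same on both strands) in capitals. SOX1 (chromosome 13, plus strand) was the member with the most marked sequence over both lists together. SOX2 (chromosome 3, plus strand) and SOX21 (chromosome 13, minus strand) were added because the table held them.
SOX1: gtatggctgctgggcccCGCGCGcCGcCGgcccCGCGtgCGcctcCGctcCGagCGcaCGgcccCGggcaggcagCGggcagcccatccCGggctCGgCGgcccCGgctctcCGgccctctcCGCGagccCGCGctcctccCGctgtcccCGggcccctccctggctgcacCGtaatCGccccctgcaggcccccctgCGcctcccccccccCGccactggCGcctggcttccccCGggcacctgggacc
SOX2: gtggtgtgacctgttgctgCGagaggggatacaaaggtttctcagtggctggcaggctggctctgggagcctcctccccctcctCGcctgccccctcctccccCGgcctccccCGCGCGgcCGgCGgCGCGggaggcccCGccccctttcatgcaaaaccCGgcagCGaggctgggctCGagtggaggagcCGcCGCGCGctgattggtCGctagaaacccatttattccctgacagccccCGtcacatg
SOX21: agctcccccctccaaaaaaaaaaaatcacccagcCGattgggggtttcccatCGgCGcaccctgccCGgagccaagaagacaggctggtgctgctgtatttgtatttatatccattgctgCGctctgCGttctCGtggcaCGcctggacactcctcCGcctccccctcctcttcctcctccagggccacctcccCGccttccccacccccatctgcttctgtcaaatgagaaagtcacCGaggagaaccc
The SOX1 promoter held 31 CpGs with 82.0% G or C, and 10.9% of the 35116 promoter stretches of this length in the table held at least as many. The SOX2 promoter held 20 CpGs with 68.8% G or C, a number reached by 32.4% of promoters. The SOX21 promoter held 11 CpGs with 58.8% G or C, equal to the median of 11 over all promoters, and 50.3% held at least as many. The 3 promoters thus ran from CpG-rich to average. All 3 windows were marked and no promoter of an unmarked window was matched, so CpG density could not be compared with marking. At least 1 CpG was present in 93.9% of all promoters. Since the sequences and the peaks are on different builds, the promoters were not placed within the peaks.

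Called H3K27me3 was present in 7 of the 10 windows in the DMSO library and in 8 in the AKBA library. For comparison, the genome from the first to the last peak of each chromosome was cut into 67291 bins of 43.5 kb, the median window length, of which 8.33% held a DMSO peak and 11.8% an AKBA peak. DMSO peaks covered 41.0 kb, or 9.04% of the windows, and AKBA peaks 62.2 kb, or 13.7%. Over all bins the corresponding shares were 0.259 and 0.501%. In the 100 kb on each side of the windows, they were 0.628 and 1.49%. The windows of SOX1, SOX2, SOX11, SOX14, SOX17 and SOX21 were more densely covered than their own flanks in both libraries. At SOX18 the window was covered over 1.08% with DMSO and its flanks over 3.21%, against 6.84 and 5.69% with AKBA, and at SOX9 the AKBA coverage was 0.504% in the window and 1.23% in the flanks. These are genes proposed for description with results of these lists already known, so the height above the background is a description of them and no more.

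**Figure D1:**
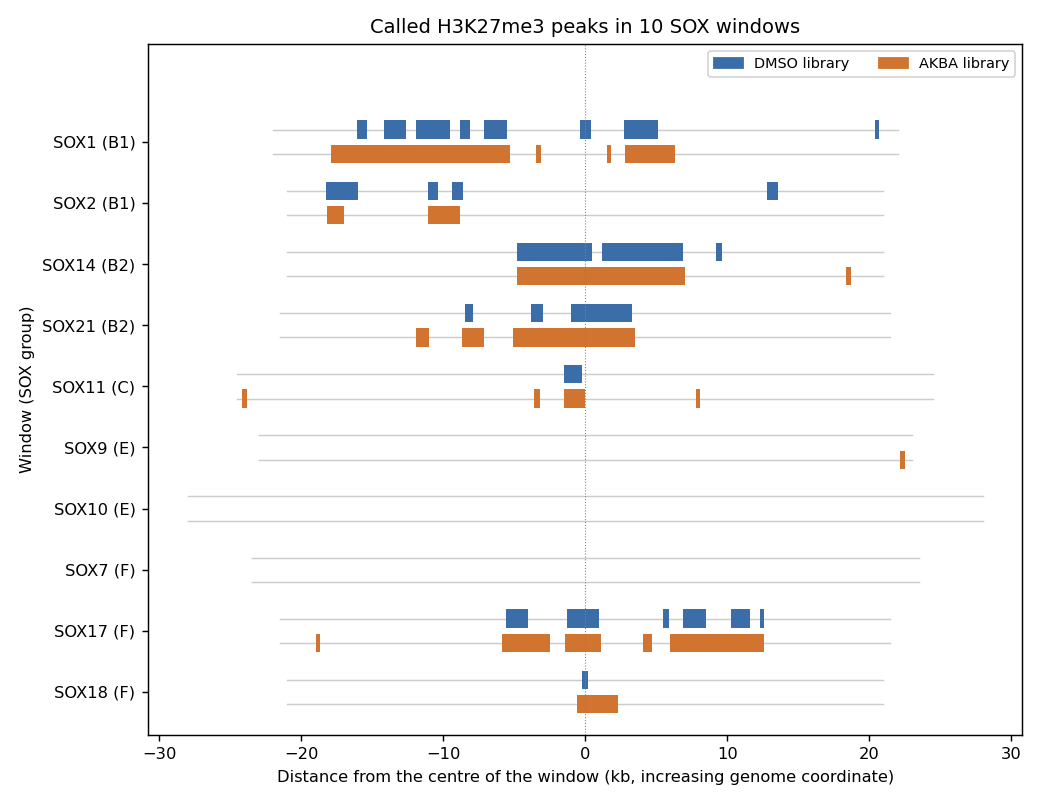
Map of the H3K27me3 peaks in the 10 SOX windows, with the DMSO library (blue) above the AKBA library (orange) in each row and the distance from the centre of the window in kb on the x axis. Grey lines show the extent of each window, and the narrowest peaks are drawn slightly enlarged. Long AKBA blocks span several DMSO peaks at SOX1, SOX14, SOX17 and SOX21, and the SOX7 and SOX10 rows are empty.

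The AKBA list covered more sequence than the DMSO list in 7 of the 8 marked windows. Its peaks were fewer over all windows together, though not in each of these. More AKBA than DMSO bases were also found in 77.0% of the 9182 genome bins with a peak of either list, and in 91.9% of the 918 bins with the most marked sequence (at least 5.93 kb summed over both lists). The direction at the SOX windows is therefore that of the genome. The ratio of covered bases, AKBA to DMSO, was 1.52 in the SOX windows, 1.61 in the densest bins and 1.94 over all bins. AKBA bases were at least 2 times the DMSO bases in 2 of the 8 marked windows, SOX18 and SOX9 (the latter without any DMSO peak), against 57.9% of marked bins and 28.0% of the densest ones. DMSO bases were at least 2 times the AKBA bases in none of the 8, against 16.2% of marked bins. This share was not computed for the densest bins, of which 91.9% had more AKBA bases.

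Summed over the windows, peak numbers went the other way, but not beyond counting error. The 22 AKBA and 26 DMSO peaks gave a ratio of 0.846 with an exact 95% interval of 0.457 to 1.55, which includes 1. The interval treats neighbouring peaks as independent, although 8 of the 26 DMSO peaks lay in the SOX1 window. In the whole lists AKBA peaks were the more numerous, with 13155 against 8890. The ratio of these whole-list numbers also lies inside the interval. DMSO peaks outnumbered AKBA peaks in 4 of the 8 marked windows (SOX1, SOX2, SOX14 and SOX17), AKBA peaks outnumbered DMSO peaks in 2 (SOX9 and SOX11), and the numbers were equal in 2. All 4 of the windows with more DMSO peaks were among the 5 that reached the density of the densest bins. In those bins DMSO peaks were the more numerous in 31.3% of cases and in all marked bins in 22.2%, and the peak ratio of the densest bins was 1.08, inside the interval for the SOX windows. The order of the counts also rested on how peaks were joined and on SOX1. Without the SOX1 window there were 18 peaks in each list, and merging peaks within 5 kb gave 13 AKBA and 10 DMSO regions.

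**Figure D2:**
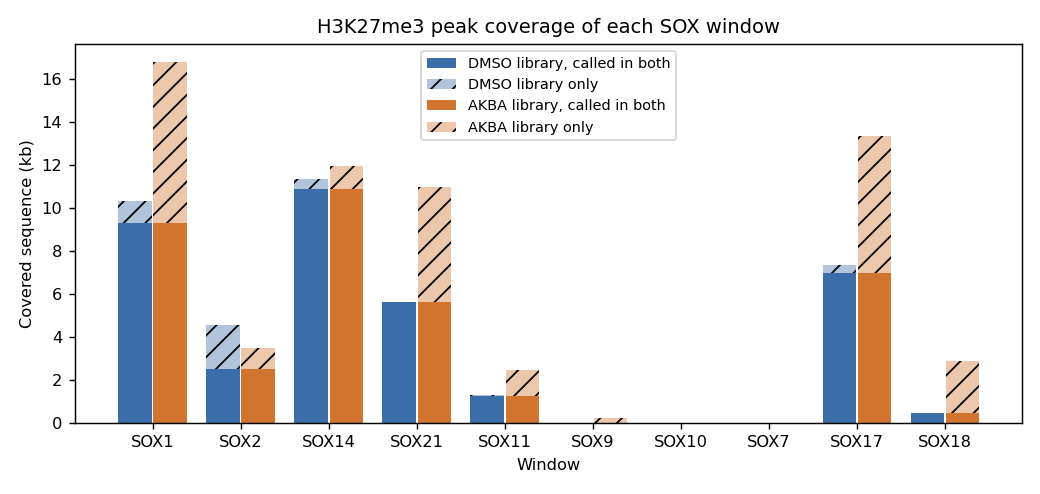
Sequence covered by H3K27me3 peaks in each SOX window in kb, for the DMSO library (blue, left bar) and the AKBA library (orange, right bar), with 1 library each and so no error bars. Solid parts were called in both libraries and hatched parts in 1 of them. SOX1, SOX17 and SOX21 have the tallest AKBA-only parts (7.50, 6.42 and 5.36 kb), whereas the DMSO bar is the taller at SOX2.

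Most of what was marked with DMSO was also marked with AKBA. An overlap of at least 1 bp with the AKBA list was found for 21 of 26 DMSO peaks (80.8%, exact 95% interval 60.6 to 93.4%, binomial), against 54.5% of the whole DMSO list. In the other direction it was found for 12 of the 22 AKBA peaks (54.5%, interval 32.2 to 75.6%), against 32.2% of the whole AKBA list. Counted in bases, 90.3% of the DMSO coverage of the windows and 59.5% of the AKBA coverage were common to both, against 64.2 and 33.2% over the whole lists. The members were also wider than their lists, and the part of width in the sharing was not tested. The median width was 1056 bp for the DMSO members and 552 bp for the DMSO list, and 1366 and 742 bp for AKBA. When an overlap had to reach 50% of both peaks, 5 peaks of each list were shared, or 19.2% of the DMSO and 22.7% of the AKBA members. Over the whole lists these shares were 20.8 and 14.0%.

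SOX1 and SOX2 form the B1 group with SOX3 and keep neural progenitors undifferentiated. SOX2 is also a core factor of pluripotent stem cells. The B1 windows differed from each other. The SOX1 window (chromosome 13, 112702 to 112746 kb) had the most coverage of the 10 with AKBA and over both lists together, with 8 DMSO peaks over 10.3 kb and 4 AKBA peaks over 16.8 kb. Among all genome bins, 0.0624% were covered at least as densely in the DMSO list and 0.0327% in the AKBA list. Its main AKBA peak, from 112706073 to 112718680, ran 12608 bp without a break and was the 13th widest of the whole AKBA list, and with a score of 6.50 it was also the highest-scoring of the window. It lay over a row of 5 DMSO peaks between 705 and 2396 bp wide, which together covered 55.5% of it. The gaps between these DMSO peaks were 682 to 1215 bp. Gaps in the whole AKBA list go down to 857 bp and those in the DMSO list to 641 bp, so 2 of the 4 gaps were too narrow to be shown as gaps in the AKBA list. The AKBA peak also reached 1795 bp further than the DMSO row on the side away from the centre and 192 bp further on the other. The difference between the lists, 6.46 kb, was 3.04 kb in a window narrowed by 10 kb on each side. This whole row stopped 5.3 kb before the centre of the window. The widest DMSO peak, of 2396 bp from 112712104 to 112714499, lies in this row, and so does the highest-scoring, of 738 bp from 112707868 to 112708605 with a score of 5.69. Past the centre, a DMSO peak of 2363 bp matched an AKBA peak of 3556 bp. The DMSO peak nearest the centre, 814 bp wide, and another of 161 bp near the window's end had no AKBA overlap. The long noncoding gene SOX1-OT overlaps SOX1 in RefSeq. Genes were not placed on the peaks, so the marked row is not assigned to either gene here.

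The SOX2 window (chromosome 3, 181410 to 181452 kb) was the only one of the 8 with more DMSO than AKBA bases. Its 4 DMSO peaks covered 4.57 kb and its 2 AKBA peaks 3.46 kb. The widest DMSO peak, from 181412720 to 181414981, measured 2262 bp. The AKBA peak at the same place, from 181412824 to 181414039, measured 1216 bp, lay entirely inside it and had the highest AKBA score of the window, 4.01. This was the 1 case among the 7 one-to-one pairs of the SOX windows in which the AKBA peak was the narrower. The next 2 DMSO peaks, of 732 and 762 bp, overlapped a single AKBA peak of 2246 bp from 181419928 to 181422173. This AKBA peak covered 98.0% of the first and 73.9% of the second. The second, from 181421611 to 181422372, had the highest DMSO score of the window, 5.15. The gap between these 2 DMSO peaks was 966 bp. A DMSO peak of 812 bp beyond the centre was 21627 bp from the nearest AKBA peak. Neither list had a peak between 8.6 kb before and 12.8 kb after the centre, so the middle of the window was without called mark. The excess of DMSO bases, 1.11 kb, turned to an AKBA excess of 1.20 kb when peaks under 1 kb were left out, and of 0.767 kb when the window was narrowed by 10 kb on each side. Other settings gave a larger DMSO excess. AKBA minus DMSO was -7.00 kb with peaks within 5 kb merged and -2.62 kb with a score of at least 3 in both lists. The long noncoding gene SOX2-OT runs across SOX2 in RefSeq.

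SOX14 and SOX21 form the B2 group and counteract the B1 factors as repressors in the nervous system. Both windows were marked over their middle. In the SOX14 window (chromosome 3, 137463 to 137505 kb) the ratio of coverage, AKBA to DMSO, was 1.05, the closest to 1 among the windows with peaks of both lists, with 11.4 kb in 3 DMSO peaks and 12.0 kb in 2 AKBA peaks. In bases, 96.0% of the DMSO and 91.1% of the AKBA coverage were common. This window had the highest DMSO coverage of the 10, at 27.1% of its length, which 0.0342% of genome bins reached. The adjoining DMSO peaks of 5263 bp (137479207 to 137484469, score 5.43) and 5692 bp (137485194 to 137490885) were the widest among the DMSO members, the 61st and 47th widest of their list. A gap of 724 bp separated them, less than the smallest AKBA gap. The AKBA peak over both, from 137479227 to 137491019, measured 11793 bp with a score of 7.45, was the 17th widest of its list and ended within 134 bp of the DMSO edges on both sides. Outside this block, a DMSO peak of 432 bp and an AKBA peak of 214 bp, the narrowest width of the AKBA list, had no counterpart. The AKBA excess of 0.620 kb changed to -0.212 kb when DMSO peaks were padded and joined to the narrowest width and smallest gap of the AKBA list, and to -2.40 kb when peaks within 5 kb were merged. The direction of the SOX14 difference therefore rested on how peaks were joined.

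The SOX21 window (chromosome 13, 95342 to 95385 kb) held 3 peaks in each list, but the AKBA peaks spanned 11.0 kb in all and the DMSO peaks 5.64 kb. All DMSO bases of this window were inside AKBA peaks. The difference, 5.36 kb, was 2.90 kb with the same number of highest-scoring peaks from each list and 3.48 kb with a score of at least 3 in both. The DMSO peak over the centre, from 95362506 to 95366784, measured 4279 bp, and its score of 8.66 was the 12th highest of 8890, the best rank of any member. A DMSO peak of 781 bp lay 2044 bp before it. A single AKBA peak from 95358429 to 95366964, of 8536 bp and with a score of 7.67 (rank 195 of 13155), spanned both and reached 1252 bp further on the left. The gap of 2044 bp was the widest among those closed in the AKBA list at the SOX genes. Further left, a DMSO peak of 576 bp matched an AKBA peak of 1545 bp, and an AKBA peak of 917 bp had no DMSO overlap.

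SOX11 stands for the C group, which acts in the maturation of neurons. Its window (chromosome 2, 5813 to 5862 kb) held 1 DMSO peak and 4 AKBA peaks. The DMSO peak, from 5835958 to 5837256, measured 1299 bp with a score of 3.70. It was matched by an AKBA peak of 1515 bp from 5836015 to 5837529 with a score of 5.61, both just before the centre. The AKBA peaks without a counterpart were 246 to 363 bp wide. Coverage was 1.30 kb with DMSO and 2.48 kb with AKBA, and the difference of 1.18 kb fell to 0.216 kb when only peaks of at least 1 kb were kept. Most of the difference at SOX11 was thus in narrow peaks.

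SOX9 and SOX10 belong to the E group. SOX9 drives cartilage and testis formation besides its role in the hair follicle, and SOX10 specifies neural crest derivatives such as melanocytes and glia. Neither window carried more than a trace of called mark. The SOX9 window (chromosome 17, 70097 to 70143 kb) had no DMSO peak and 1 AKBA peak of 232 bp, from 70142205 to 70142436, with a score of 5.21. That peak lay 22.2 kb from the centre, close to the edge, and 73649 bp from the nearest DMSO peak. The SOX10 window (chromosome 22, 38347 to 38403 kb) had no peak in either list. The nearest peaks lay 447 kb (DMSO) and 449 kb (AKBA) beyond its edges, the longest such distance among the 10 windows. In RefSeq, POLR2F, which encodes a subunit shared by the RNA polymerases, overlaps SOX10.

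SOX7, SOX17 and SOX18 form the F group, which acts in endothelium and blood vessels, and SOX17 also in endoderm. The members of this group ranged from no mark to heavy mark. The SOX7 window (chromosome 8, 10561 to 10608 kb) held no peak in either list, and the nearest lay 93.7 kb (DMSO) and 93.1 kb (AKBA) beyond its edges. The SOX17 window (chromosome 8, 55350 to 55393 kb) held 6 DMSO peaks over 7.34 kb and 5 AKBA peaks over 13.4 kb. Of its DMSO bases, 94.8% were inside AKBA peaks, whereas 52.0% of its AKBA bases were inside DMSO peaks. The widest AKBA peak, from 55377487 to 55384052, measured 6566 bp with a score of 7.34 and lay over 3 DMSO peaks, which made up 47.3% of its length. The gaps inside it were 728 to 1803 bp. The SOX17 difference, 6.04 kb, fell to 0.535 kb when peaks within 5 kb were merged. The highest-scoring DMSO peak of the window, from 55381793 to 55383092 with a score of 6.81 (rank 62 of 8890), lay under it. The widest DMSO peak, from 55370207 to 55372499 and over the centre, measured 2293 bp and its AKBA counterpart 2534 bp. A further DMSO peak of 1558 bp corresponded to an AKBA peak of 3458 bp. The DMSO peak without an AKBA overlap, of 375 bp, was 61 bp away from one.

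The SOX18 window (chromosome 20, 62659 to 62701 kb) held 1 peak in each list, both over the centre. The DMSO peak, from 62679763 to 62680216, measured 454 bp with a score of 3.38. The AKBA peak, from 62679431 to 62682301, measured 2871 bp with a score of 4.97, so coverage was 6.32 times as long with AKBA. The AKBA peak extended 332 bp beyond the DMSO peak on the left and 2085 bp on the right. The flanks of this window, 100 kb on each side, held 6.41 kb of DMSO and 11.4 kb of AKBA peaks. By share of length, they were more densely covered than the window with DMSO (3.21 against 1.08%). With AKBA they were less densely covered (5.69 against 6.84%). The neighbouring protein-coding genes in RefSeq are C20orf204 and TCEA2.

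**Figure D3:**
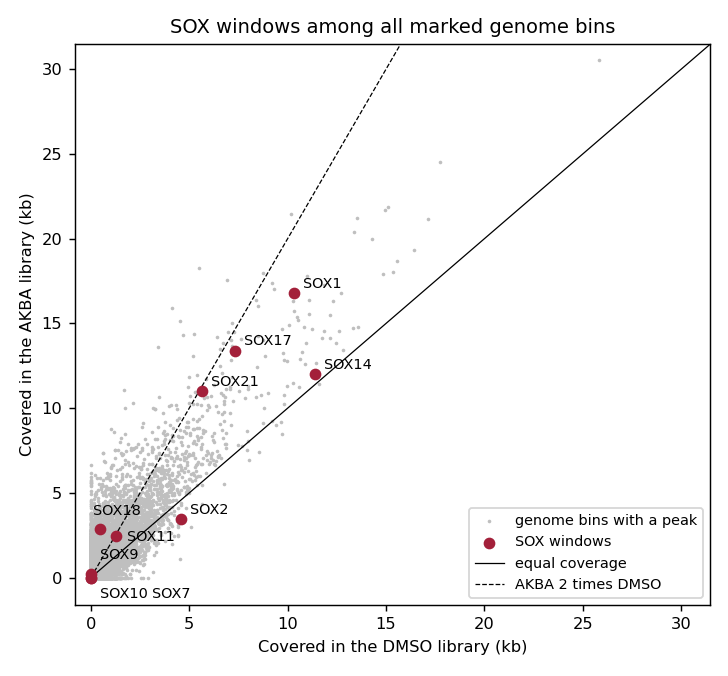
Sequence covered in the DMSO library (x axis, kb) against the AKBA library (y axis, kb) for all 43.5-kb genome bins with a peak (grey) and the 10 SOX windows (red). SOX1, SOX17, SOX14 and SOX21 lie among the most marked bins, SOX2 lies below the line of equal coverage, and SOX18 and SOX9 lie above the dashed line of AKBA 2 times DMSO.

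By group, the B1 windows together held 14.9 kb of DMSO and 20.3 kb of AKBA peaks, the B2 windows 17.0 and 23.0 kb, and the F windows 7.79 and 16.3 kb. The ratios, AKBA to DMSO, were 1.36, 1.35 and 2.09. The C window, that of SOX11, had a ratio of 1.91. The E windows together held 0 kb with DMSO and 0.232 kb with AKBA. Windows of the same group also differed from each other, since SOX2 and SOX1 fell on opposite sides of equal coverage, and SOX7 was unmarked beside SOX17. With 1 to 3 windows a group, no difference between groups was tested.

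Single AKBA peaks overlapped several DMSO peaks in 5 of the windows. At SOX1, SOX2, SOX14, SOX17 and SOX21, 1 AKBA peak each overlapped 2 or more DMSO peaks, 14 in all. SOX2 had fewer AKBA than DMSO bases all the same, and SOX9, SOX11 and SOX18 had more AKBA bases without such a peak. Such peaks made up 4.43% of the whole AKBA list. No DMSO member overlapped more than 1 AKBA peak, which 0.945% of the whole DMSO list did. Of the 9 gaps closed in this way, 4 were under 857 bp, and 5 were at least that wide and could have been shown as gaps in the AKBA list. With DMSO peaks padded by 27 bp on each side and joined across gaps of up to 856 bp, both lists had 22 peaks in the windows and the ratio of covered bases was 1.38. In the 7 one-to-one pairs the AKBA peak was wider in 6, by a median of 969 bp over all 7. Over all 3510 such pairs of both lists it was wider in 73.1%, by a median of 404 bp. The SOX pairs were also wider to begin with, with a median DMSO width of 1558 bp against 851 bp over all pairs. The minimum width and the smallest gap differ between the lists, and depth, which is unknown, may differ too, so the part of these in the wider AKBA peaks cannot be told apart from the treatment.

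**Figure D4:**
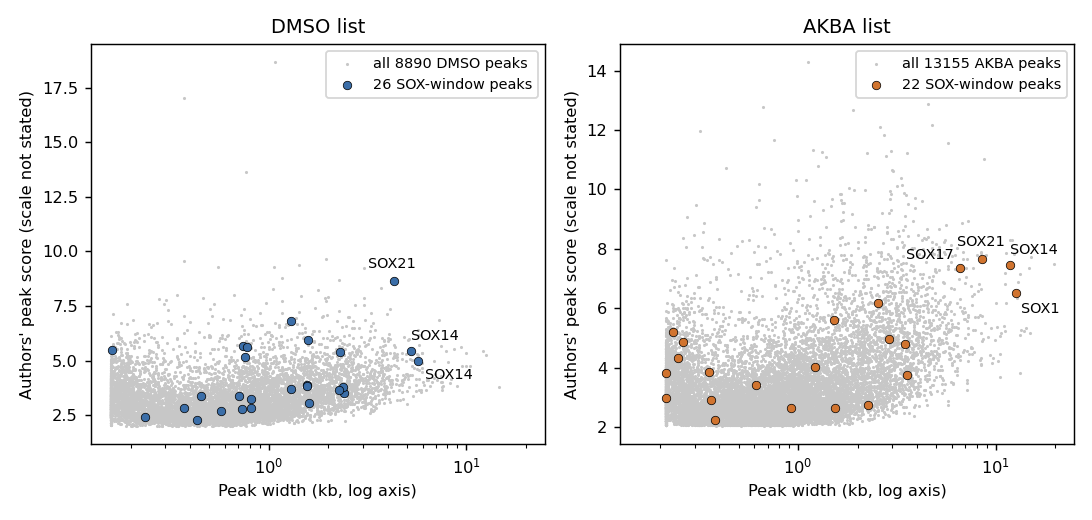
Peak width (x axis, kb, log axis) against the authors' peak score (y axis, scale not stated) for every peak (grey) and the SOX-window peaks (coloured), with the DMSO list on the left and the AKBA list on the right. Peaks of at least 4 kb are named. The SOX1, SOX14, SOX17 and SOX21 blocks lie at the wide end of the AKBA list, and the SOX21 peak has the highest score of the DMSO members.

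The scores, which are the authors' own and are ranked only within each list, placed members throughout both lists. Of the 26 DMSO members, 10 were in the top 10% of their list by score and 7 in the top 10% by width. Of the 22 AKBA members, 7 were in the top 10% by score and 8 by width. The lowest-scoring member of each list was narrower than the median of its list. In the DMSO list it was the peak of 432 bp at SOX14, with a score of 2.28. In the AKBA list it was the peak of 378 bp at SOX1, with a score of 2.22. Some narrower members scored higher, such as the 161-bp DMSO peak at SOX1 (5.47) and the 232-bp AKBA peak at SOX9 (5.21).

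Summed over the windows, more of the mark lay around the middle than the length there would give. The 20 kb around the centres made up 44.1% of the window length and held 76.3% of the DMSO and 76.4% of the AKBA coverage. SOX2 and SOX9 did not follow this, since the central 20 kb of the SOX2 window held 0.762 of its 4.57 kb with DMSO and 1.17 of its 3.46 kb with AKBA, and the only SOX9 peak lay near the edge. At SOX1 the central share was lower than in the sum. Its central 20 kb held 5.94 of 10.3 kb with DMSO and 8.88 of 16.8 kb with AKBA. In the last 0.5 kb before the centre, 5 of the 10 windows were covered over at least 50% in each list. SOX11, SOX14, SOX17 and SOX21 were covered there in both lists, SOX1 in the DMSO list and SOX18 in the AKBA list. The SOX1 mark lay mostly before the centre in the direction of increasing coordinates, with 7.43 kb of DMSO and 13.0 kb of AKBA coverage there against 2.90 and 3.82 kb after it. At SOX2, all 3.46 kb of AKBA coverage lay before the centre, as did 3.76 kb of the DMSO coverage against 0.812 kb after it. At SOX17 the greater part lay after the centre, 4.49 kb with DMSO and 8.30 kb with AKBA, against 2.85 and 5.08 kb before it.

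**Figure D5:**
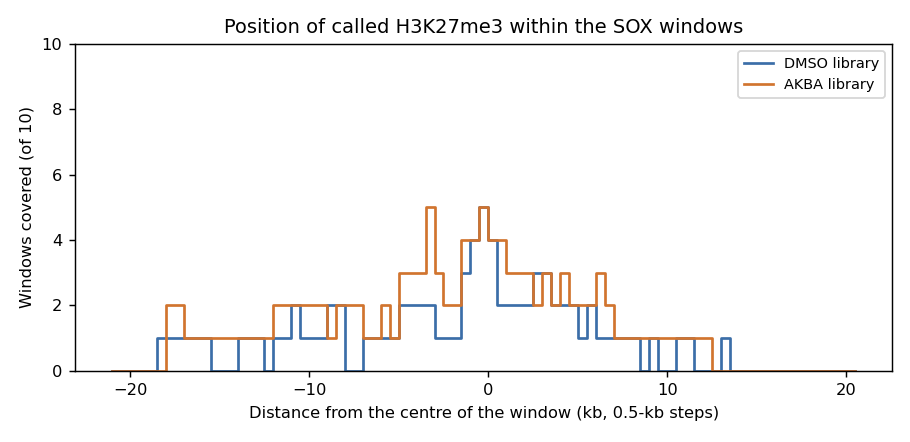
Number of the 10 SOX windows (y axis) in which at least 50% of each 0.5-kb step was covered by peaks, against distance from the window centre (x axis, kb), for the DMSO library (blue) and the AKBA library (orange). Both lines reach 5 windows just before the centre and are lower towards the edges. The AKBA line also reaches 5 windows in the step from -3.5 kb and is at 2 in the step from -2.5 kb.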

How the data were processed

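Chromatin immunoprecipitation and sequencing of H3K27me3 was done in HaCaT keratinocytes, with 1 library for DMSO and 1 for AKBA. Per the labels' protocols, sonicated, formaldehyde-fixed chromatin was precipitated, and amplified libraries were size-selected on a gel. Per the submitters' processing notes, reads were placed on hg19 and the tools were BWA, STAR and MACS2, without versions. Of the peak threshold, the use of input DNA and the treatment of duplicates, the sources used here say nothing. Each deposited list holds positions and 1 score per peak, which the authors left without a stated scale, so the score only ranks peaks within a list. The narrowest peak and smallest gap are 160 and 641 bp in the DMSO list and 214 and 857 bp in the AKBA list, which affects peak numbers and widths.

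Peaks overlapping the SOX windows by at least 1 bp were taken from both lists, and covered bases, overlaps and ranks were computed in Python 3.11.15 (pandas 2.3.3, scipy 1.17.1, numpy 2.4.6). Overlap counts were checked by direct comparison on DMSO peaks moved by random amounts. Coverage was checked base by base in windows around randomly drawn DMSO peaks. Coordinates are 1-based hg19. Genes other than the 10 were not analysed here, and RefSeq (GRCh38.p14) gave only neighbour names and promoter sequences. The windows, lists and rules were chosen with earlier results of these data known. In each window the widest and the highest-scoring peak of each list are named, with any further peak named after its values were seen. Shares have exact Clopper-Pearson intervals. Alternatives concerned score, peak number, merging, width, joining, overlap, window size, bins and the leaving out of each window.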

Additional observations from a re-analysis of the deposited data

How the results depend on the processing

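With 1 library per condition and unknown depth, every value describes these libraries. No paired analysis was possible because each condition has a single library. The AKBA to DMSO ratio of covered bases stayed above 1 under all alternatives, between 1.11 (peaks within 5 kb merged) and 1.75 (peaks of at least 1 kb), and between 1.45 and 1.69 when any 1 window was left out. The ratio of peak numbers turned to 1.30 with peaks within 5 kb merged and was 1.00 with DMSO peaks padded and joined or without the SOX1 window. It was otherwise between 0.720 and 0.923. Among DMSO peaks the overlapping share was 100% for peaks of at least 1 kb (13 of 13) and 19.2% with 50% reciprocal overlap, where the share of AKBA peaks was 22.7%. The other settings gave 76.7 to 85.0% and 50 to 75%, respectively. The share among all peaks of at least 1 kb in the whole lists was not computed. The 13 of 13 therefore cannot be set against other peaks of that width. AKBA bases were the greater in 6 or 7 windows throughout. The SOX14 difference (0.620 kb, AKBA minus DMSO) became -0.212 kb with DMSO peaks padded and joined and -2.40 kb with merging. The SOX2 difference (-1.11 kb) became 1.20 kb for peaks of at least 1 kb and 0.767 kb in windows narrowed by 10 kb. It grew to -7.00 kb with merging and to -2.62 kb at a score of at least 3. No other window changed direction, but some differences moved by more than 1.5 times. SOX1 went from 6.46 to 3.04 kb in narrowed windows, SOX17 from 6.04 to 0.535 kb and SOX11 from 1.18 to 2.90 kb with merging, SOX11 to 0.216 kb for peaks of at least 1 kb, and SOX21 from 5.36 to 2.90 kb with equal peak numbers and 3.48 kb at a score of at least 3. SOX9 lost its only peak for peaks of at least 1 kb and in narrowed windows. Genome bins with more AKBA bases were 77.0%, 76.8% with shifted bins and 79.4% with bins of 100 kb.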
